A study of Homo sapiens with 18 samples.

Results

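Tubular injury and repair markers are genes that kidney tubule cells switch on, or release protein from, when they are damaged and while they recover. The 10 genes described here are HAVCR1, LCN2, SPP1, VCAM1, ICAM1, SOX9, SOX4, VGF, IL18 and CLU. They were chosen by name, by taking every probe of the array whose target gene carries one of these symbols, which gave 15 of 48803 probes. HK-2 cells, which are proximal tubule cells of human kidney made immortal with viral oncogenes, were profiled on 18 bead arrays (Illumina HumanWG-6), each with RNA from its own flask. The 6 groups of 3 flasks were TGF-beta1 (2 ng/mL) with C-peptide (5 nM) for 48 h, TGF-beta1 (2 ng/mL) for 48 h, C-peptide (5 nM) for 48 h, control for 48 h, C-peptide (5 nM) for 18 h and control for 18 h. All flasks held cells of passages 18 to 30 that had been moved to 5 mM glucose for 48 h and starved of serum overnight, and all incubations ended together. For replicates 2 and 3 of the TGF-beta1 group the descriptions name TGF-b2 and TGF-b3, and these arrays were grouped by title. The labels thus do not settle which form of TGF-beta these flasks received. One cell line stands behind every value, and nothing in the labels says that the flasks came from separate thaws, so the p-values measure the spread between flasks.

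After tubular damage, epithelial cells lose their specialised functions, some divide to replace lost neighbours, and the nucleus is reprogrammed by factors such as SOX9. Injured cells shed the ectodomain of KIM-1, the HAVCR1 protein, a receptor with which tubule cells engulf dead neighbours, and secrete lipocalin-2 (LCN2, also called NGAL), which binds iron-carrying siderophores. Both proteins are measured in urine as signs of acute kidney injury. Adhesion molecules (VCAM1, ICAM1), osteopontin (SPP1) and interleukin-18 (IL18) link injured tubules to leukocytes, and clusterin (CLU) is a secreted chaperone. TGF-beta1 is a growth factor that drives fibrosis, and C-peptide is the connecting piece that beta cells cut out of proinsulin and secrete with insulin.

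Promoter sequences are shown for LCN2 and VCAM1, the markers that stood furthest above the other 18 h arrays on a single C-peptide array, described below with target genes of NF-kappaB. LCN2 lay 4.03 above the mean of the other 5 arrays at 18 h on the log2 scale, and the tested VCAM1 probes 1.54 and 1.48. The VCAM1 probe that was not tested, ILMN_2325763, lay 0.70 above that mean. HAVCR1, both SPP1 probes and IL18 also had their highest value of all arrays there, but lay only 0.15 to 0.41 above that mean. The sequences are the 250 bases before the start of each gene on the plus strand, from RefSeq (GRCh38.p14), at chr9:128149203-128149452 for LCN2 and chr1:100719492-100719741 for VCAM1. Capitals mark a match to GGGRNNYYCC (R is A or G, Y is C or T, N is any letter), searched on both strands. This is a form of the kappaB decamer, the DNA element that NF-kappaB binds. Sites that depart from this pattern were not searched, so a count of 0 does not mean that such sites are absent.
LCN2: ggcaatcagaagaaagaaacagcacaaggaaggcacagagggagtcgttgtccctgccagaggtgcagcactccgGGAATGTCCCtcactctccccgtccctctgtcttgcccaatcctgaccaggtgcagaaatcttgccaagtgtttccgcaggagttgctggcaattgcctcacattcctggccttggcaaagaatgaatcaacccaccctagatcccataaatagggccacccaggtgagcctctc
VCAM1: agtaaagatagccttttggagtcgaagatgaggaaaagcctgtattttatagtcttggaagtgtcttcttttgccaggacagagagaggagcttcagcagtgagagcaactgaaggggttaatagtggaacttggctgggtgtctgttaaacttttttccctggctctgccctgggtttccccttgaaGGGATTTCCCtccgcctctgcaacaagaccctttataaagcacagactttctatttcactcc
The match lies at positions -175 to -166 from the start of LCN2, on the minus strand, and at positions -62 to -53 from the start of VCAM1. There the same positions match on both strands, read as GGGATTTCCC on the plus strand and GGGAAATCCC on the minus strand. Of the 10 genes, 7 had a promoter in the table (not SOX9, IL18 or CLU), and among these 7 LCN2 and VCAM1 held a match, while HAVCR1, SPP1, ICAM1, SOX4 and VGF held 0. A match was found in 9.96% of the 35116 promoter windows of this length, and it describes the letters only.

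Values are log2 intensities after background correction and quantile normalization, and a probe counted as detected on an array at a detection p under 0.01. Of the 15 probes, 10 were detected on at least 3 arrays and were tested among 16322 such probes, and they cover 8 of the 10 genes. ICAM1, the leukocyte adhesion molecule, had 1 probe (ILMN_1812226) that was detected on 0 of 18 arrays, with deposited intensities of 0.7 to 18.2. CLU had 3 probes that were detected on 0 of 18 arrays, with intensities from -11.6 to 7.5. A further VCAM1 probe (ILMN_2325763) was detected on 1 array, C-peptide 18 h replicate 3, at an intensity of 28.7. No fold change is given for these 5 probes. Each member value rested on 20 to 68 beads.

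Across arrays the mean intensity ranged from 215.9 to 343.7, and 14580 to 15818 probes were detected. The lowest correlation between replicates was 0.980 in the 18 h C-peptide group, where replicate 3 stood apart, against 0.991 to 0.995 in the other groups. The 18 h changes that this array moves most are given with and without it. The headers number the arrays without a break, and the labels name no sets, so sets of 6 in number order were assumed. In them 48 h control falls with TGF-beta1, C-peptide at 48 h with the combination, and the 18 h groups together. C-peptide against control at 48 h and the combination against TGF-beta1 cross these assumed sets. There, any difference between sets cannot be told apart from the treatment. The same holds for time, as 48 h controls are set against 18 h controls, or the 48 h C-peptide change against that at 18 h. Of the proximal tubule markers 8 of 14 were measured, among them PAX8, GGT1 and MME, while LRP2, CUBN and AQP1 were detected on 0 arrays.

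TGF-beta1 moved most of the markers, and in both directions. Of the 10 member probes 8 passed the test (limma, adjusted p under 0.05), 2 higher and 6 lower, in a comparison in which 44.4% of all probes passed, 22.6% higher and 21.8% lower. SOX9 and VGF were higher. LCN2, HAVCR1, SOX4, IL18 and both SPP1 probes were lower, and neither VCAM1 probe passed. The median change was -0.26 on the log2 scale over the 10 probes and 0.01 over all probes. The groups did not overlap for 8 of 10 member probes, against 57.6% of all probes. In cells that also received C-peptide, TGF-beta1 gave 7 called member probes, 2 higher and 5 lower, against 42.3% of all probes, 21.3% higher and 21% lower, and the groups did not overlap for 8 of 10, against 54.8% of all probes.

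**Figure D1:**
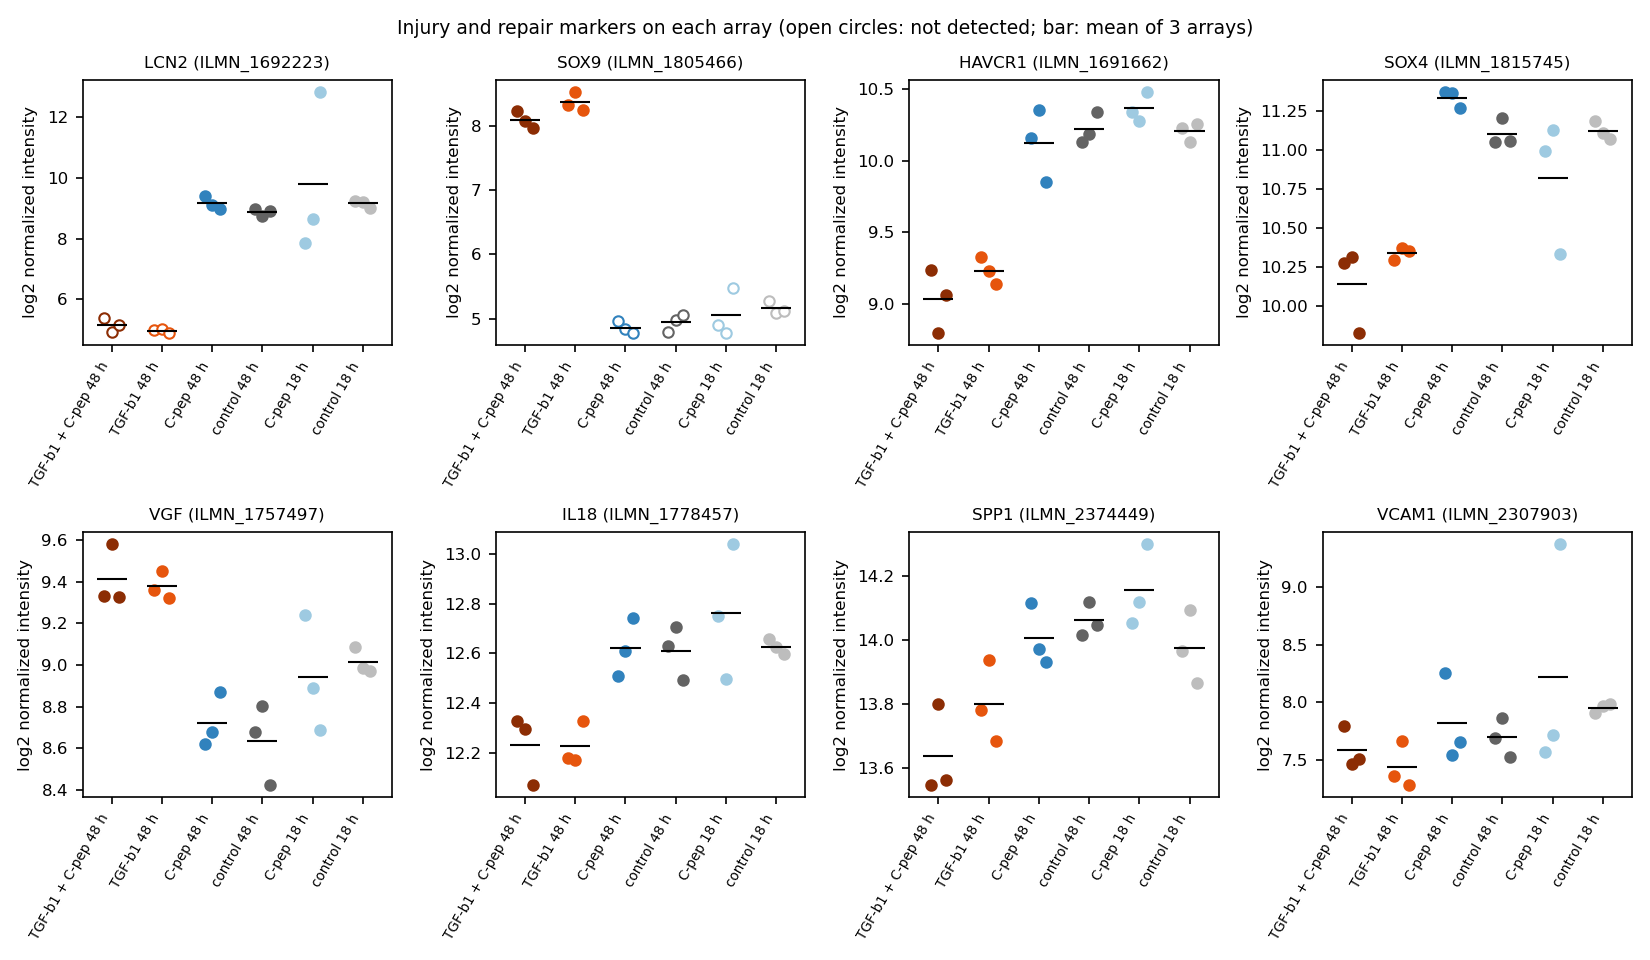
Normalized log2 intensity (vertical axis) of 1 probe for each of the 8 markers that were detected, on each of 18 arrays in 6 groups (horizontal axis), with bars at group means and open circles where a probe was not detected. LCN2 is not detected on the 6 arrays with TGF-beta1, SOX9 is detected on those 6 arrays alone, and C-peptide 18 h replicate 3 carries an LCN2 value of 12.83.

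SOX9, a transcription factor that injured tubule cells switch on and that marks cells taking part in repair, rose with TGF-beta1. Its normalized level was 8.32, 8.52 and 8.23 with TGF-beta1, against 4.80, 4.98 and 5.06 in 48 h controls. With both agents it was 8.22, 8.07 and 7.97, against 4.97, 4.84 and 4.78 with C-peptide alone. The probe was detected on all 6 arrays with TGF-beta1 and on 0 of the other 12, so the 18 h groups (4.91, 4.79 and 5.48 with C-peptide, 5.27, 5.09 and 5.13 in controls) give no measured level either. SOX9 thus passed the filter of detection on 3 arrays through the arrays with TGF-beta1 alone. In the deposited intensities the TGF-beta1 arrays read 344.4, 424.5 and 328.4, the combination arrays 266.1, 240.7 and 171.2, and the other arrays 10.6 to 24.4. Because SOX9 was not detected without TGF-beta1, its change is a bound: at least 7.94-fold higher with TGF-beta1 than in control (limma adjusted p = 1.74e-13, n = 3 each). It was at least 6.14-fold higher with both agents than with C-peptide (adjusted p = 4.3e-13). For such bounds the dim group takes, per array, the lowest level among detected probes or the probe's own level, whichever is higher.

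LCN2, the iron-siderophore carrier, showed the opposite pattern. Its level was 4.99, 5.01 and 4.90 with TGF-beta1, against 8.98, 8.73 and 8.92 in 48 h controls. The combination gave 5.40, 4.93 and 5.15, against 9.40, 9.11 and 8.98 with C-peptide alone. The probe was not detected on any array with TGF-beta1 and was detected on all 12 others. In deposited units this was 17.3, 19.7 and 15 with TGF-beta1 against 638.6, 478 and 546.4 in controls. LCN2 was at least 10.5-fold lower with TGF-beta1 than in control (limma log2 change -3.91, SE 0.69, adjusted p = 9.69e-05), and at least 13.5-fold lower with both agents than with C-peptide (-4.00, SE 0.69, adjusted p = 7.93e-05). The shared SE includes C-peptide 18 h replicate 3, and without that array it was 0.15 and the adjusted p for TGF-beta1 6.97e-17.

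HAVCR1, the gene of KIM-1, fell without being lost. Its level was 9.32, 9.23 and 9.14 with TGF-beta1, against 10.13, 10.19 and 10.34 in 48 h controls. In the presence of both agents it was 9.24, 8.80 and 9.06, against 10.16, 10.35 and 9.85 with C-peptide alone. The groups with and without TGF-beta1 did not overlap, and the probe was detected on all 18 arrays. The change was -0.99 (SE 0.12, limma adjusted p = 6.94e-07), 1.99-fold lower, and with C-peptide present -1.09 (SE 0.12, adjusted p = 1.97e-07), 2.13-fold lower. KIM-1 is cut from the cell surface by metalloproteases of the ADAM family. ADAM10 fell by 0.33 (SE 0.10, adjusted p = 0.0104) and ADAM17 fell by 0.39 (SE 0.11, adjusted p = 0.00709) with TGF-beta1, while HAVCR2, a receptor of the same family as KIM-1, was detected on 0 arrays.

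SOX4, a transcription factor of the SOXC group that is active in developing and regenerating tissues, fell while SOX9 rose. Its level was 10.29, 10.37 and 10.35 with TGF-beta1, against 11.05, 11.20 and 11.06 in 48 h controls. With both agents it was 10.28, 10.31 and 9.83, against 11.37, 11.37 and 11.27 with C-peptide alone. Neither pair of groups overlapped. SOX4 was 1.70-fold lower with TGF-beta1 than in control (log2 change -0.76, SE 0.15, limma adjusted p = 0.000221) and 2.29-fold lower with both agents than with C-peptide (-1.20, SE 0.15, adjusted p = 1.04e-06). The difference between these changes was -0.43 (SE 0.21, unadjusted p = 0.0473, adjusted p = 0.999), so it did not pass. Among 6 other SOX genes 3 were measured. SOX11, the SOXC relative of SOX4, was at least 1.48-fold higher with TGF-beta1 (limma adjusted p = 0.000667). SOX11 was detected on 3 of 3 arrays in both groups with TGF-beta1, 1 of 3 with C-peptide at 18 h and 0 in the other groups. It thus passed the filter of detection on 3 arrays only through arrays where it was high, so its call is tied to the filter. SOX12 did not pass. SOX6 passed as lower (adjusted p = 0.000178) but was detected on 0 of 3 arrays with TGF-beta1 and 1 of 3 controls, so no fold is given.

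VGF, a neuroendocrine secretory protein that is cut into peptides, was the other marker that rose. Its level was 9.36, 9.45 and 9.32 with TGF-beta1, against 8.68, 8.80 and 8.42 in 48 h controls. Under both agents it was 9.33, 9.58 and 9.32, against 8.62, 8.68 and 8.87 with C-peptide alone. All TGF-beta1 arrays lay above the arrays they were compared with. VGF was 1.67-fold higher with TGF-beta1 (log2 change 0.74, SE 0.12, limma adjusted p = 4.99e-05) and 1.61-fold higher in the presence of C-peptide (0.69, SE 0.12, adjusted p = 0.000119). Of 9 genes of the granin and prohormone-processing group 3 were measured, and 2 rose: SCG5, the chaperone of a prohormone convertase, by 4.38 (SE 0.25, adjusted p = 1.58e-11) and the granin CHGB by 0.44 (SE 0.12, adjusted p = 0.00554).

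IL18 encodes a cytokine that is made as a precursor and cut by caspases in the inflammasome. Its level was 12.18, 12.17 and 12.33 with TGF-beta1, against 12.63, 12.71 and 12.49 in 48 h controls. The combination gave 12.33, 12.30 and 12.07, against 12.51, 12.61 and 12.74 with C-peptide alone. The groups did not overlap, but the fall was small, 1.30-fold with TGF-beta1 (log2 change -0.38, SE 0.10, limma adjusted p = 0.00522) and 1.31-fold with C-peptide present (-0.39, SE 0.10, adjusted p = 0.00488). The call with C-peptide present ended under median scaling in place of quantile normalization (-0.26, adjusted p = 0.136). Of its 7 partners PYCARD, the inflammasome adaptor, fell by 0.73 (SE 0.12, adjusted p = 4.92e-05), detected on 1 of 3 arrays with TGF-beta1 and all 3 controls, and IL18BP, the binding protein that neutralises the cytokine, rose by 0.33 (SE 0.12, adjusted p = 0.0312). CASP1, CASP4 and NLRP3 were detected on 0 arrays.

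SPP1, the secreted phosphoprotein osteopontin, which binds integrins and CD44, was read by 2 probes near the top of the scale, with deposited intensities up to 23644.2 where the highest value on an array was 23272.6 to 36802.7. Probe ILMN_2374449 had 13.78, 13.94 and 13.69 with TGF-beta1, against 14.02, 14.12 and 14.05 in 48 h controls. The combination gave 13.55, 13.80 and 13.56, against 14.12, 13.97 and 13.93 with C-peptide alone. In neither case did the groups overlap. The changes were -0.26 (SE 0.09, limma adjusted p = 0.0172) and -0.37 (SE 0.09, adjusted p = 0.00145). Probe ILMN_1651354 changed by -0.22 (SE 0.08, adjusted p = 0.0306) with TGF-beta1 and by -0.16 (SE 0.08, adjusted p = 0.107) with C-peptide present, where its groups overlapped. The first of these calls was lost without control replicate 2 (adjusted p = 0.123) or 3 (0.0522), and without TGF-beta1 replicate 1 (0.109) or 3 (0.106), and that of ILMN_2374449 was lost without control replicate 2 (0.0666) or TGF-beta1 replicate 3 (0.0963). Of 7 SPP1 partners 6 were measured, and its receptors CD44 (1.37, SE 0.17, adjusted p = 1.33e-06), ITGAV (0.61, SE 0.15, adjusted p = 0.0031) and ITGB1 (0.45, SE 0.10, adjusted p = 0.000594) rose, while PHEX, a peptidase that cleaves osteopontin, was at least 1.74-fold lower (adjusted p = 3.44e-05).

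VCAM1, the adhesion molecule that binds leukocyte integrins, was detected but did not pass with TGF-beta1. Probe ILMN_2307903 had 7.36, 7.66 and 7.28 with TGF-beta1, against 7.69, 7.87 and 7.53 in 48 h controls. The groups overlapped, and the change was -0.26 (SE 0.29, 95% confidence interval -0.87 to 0.35, limma adjusted p = 0.5). With both agents it had 7.79, 7.46 and 7.51, against 8.25, 7.54 and 7.66 with C-peptide alone (-0.23, SE 0.29, adjusted p = 0.563). Probe ILMN_1766955 changed by 0.04 (SE 0.27, adjusted p = 0.921) with TGF-beta1 and by -0.43 (SE 0.27, adjusted p = 0.216) with C-peptide present. In the latter case its groups did not overlap, at 5.67, 5.77 and 5.78 with both agents against 6.54, 5.99 and 5.97 with C-peptide alone. The shared SE of both probes includes C-peptide 18 h replicate 3. Without that array the SE of ILMN_1766955 was 0.13 for C-peptide against control at 48 h. ITGA4, the integrin chain that binds VCAM1, was detected on 0 arrays. ITGB2, the integrin chain whose partners bind ICAM1, fell by 1.89 (SE 0.13, adjusted p = 1.55e-10), and EZR, the ezrin that anchors both adhesion molecules to actin, fell by 0.63 (SE 0.10, adjusted p = 3.33e-05).

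**Figure D2:**
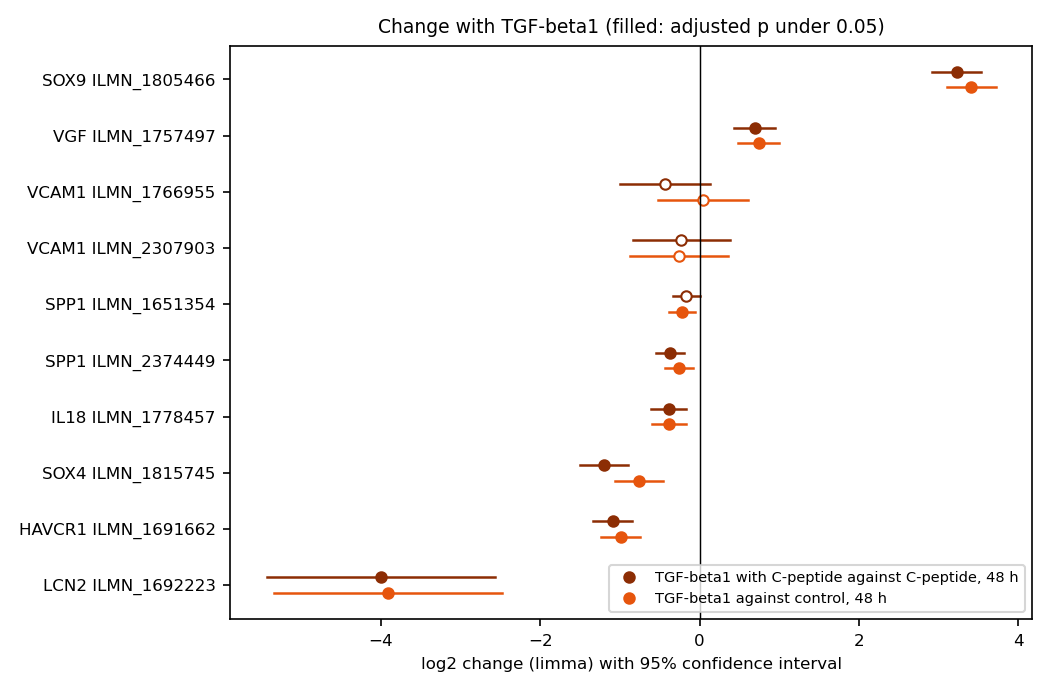
Fitted log2 change with its 95% confidence interval (horizontal axis) for the 10 tested marker probes (rows), for TGF-beta1 with C-peptide against C-peptide and for TGF-beta1 against control, both at 48 h. SOX9 and VGF lie above 0 in both comparisons, LCN2, HAVCR1, SOX4, IL18 and SPP1 ILMN_2374449 below it, and both VCAM1 probes span 0.

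Further genes of tubular injury and repair, a list of 41, gave 32 measured genes. With TGF-beta1 6 of them rose and 16 fell, with a median of -0.23, while 22.6% of all probes rose and 21.8% fell. With C-peptide present 7 rose and 15 fell, while 21.3% of all probes rose and 21% fell. The largest falls were of ANXA1, an anti-inflammatory annexin (-1.60, SE 0.13, adjusted p = 3.6e-09), the complement component C3 (-1.55, SE 0.42, adjusted p = 0.00487), CD24 (-1.46, SE 0.08, adjusted p = 1.68e-11) and DCDC2 (-1.43, SE 0.13, adjusted p = 2.89e-08). CD24 and PROM1 are surface markers of scattered tubular progenitor-like cells, and PROM1 was at least 1.24-fold lower (adjusted p = 2.58e-07). The genes that rose were led by the matrix protein TNC (1.90, SE 0.27, adjusted p = 9.68e-06), the integrin ITGB6, which activates latent TGF-beta (0.93, SE 0.14, adjusted p = 1.74e-05), the cytokine LIF (0.62, SE 0.14, adjusted p = 0.00126) and VIM, the mesenchymal filament vimentin (0.44, SE 0.06, adjusted p = 1.11e-05). KRT19 (-1.21, SE 0.08) and the stress-response genes GDF15 (-1.37, SE 0.20) and ATF3 (-0.85, SE 0.12) also fell, with the adjusted p at most 1.19e-05. Among 16 measured targets of NF-kappaB 5 fell and 0 rose with TGF-beta1, while 21.8% of all probes fell and 22.6% rose. Those that fell included LTB (-1.78, SE 0.25, adjusted p = 6.07e-06) and SOD2 (-1.57, SE 0.38, adjusted p = 0.00218). Without C-peptide 18 h replicate 3 in the fit, 3 of the targets rose and 6 fell.

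**Figure D3:**
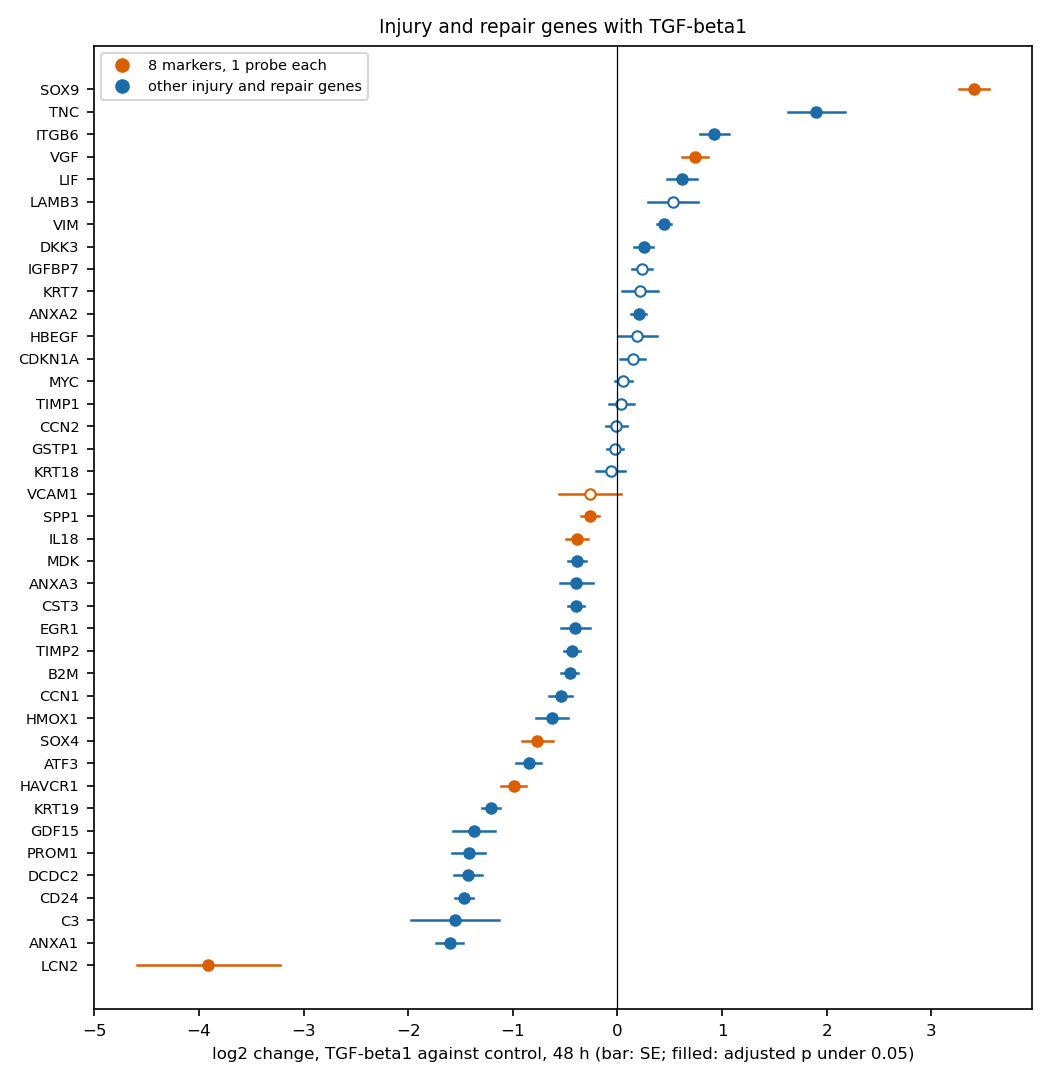
Fitted log2 change for TGF-beta1 against control at 48 h with its SE (horizontal axis), for 8 markers with 1 probe each and the 32 other measured injury and repair genes (rows), filled where the adjusted p was under 0.05. SOX9 lies at the upper end at 3.41 and LCN2 at the lower end at -3.91, with TNC at 1.90 and ANXA1 at -1.60 the outermost of the other genes.

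Partners of the markers moved with TGF-beta1 both ways. MMP9, the metalloprotease that LCN2 binds covalently and protects from degradation, rose by 3.08 (SE 0.19, adjusted p = 6.81e-11) while LCN2 was not detected. The LCN2 receptor gene SLC22A17 changed by 0.17 (SE 0.12, adjusted p = 0.295). The clusterin receptors went opposite ways, LRP8 by 0.99 (SE 0.19, adjusted p = 0.000191) and VLDLR by -0.69 (SE 0.12, adjusted p = 8.41e-05). Markers of other cells were counted beside these results, with the sum of their deposited intensities, which are not normalized and weigh bright genes most, and the mean of their normalized log2 levels, centred over all arrays. Of 6 fibroblast markers 4 were measured and 2 rose, DCN by 0.76 (SE 0.23, limma adjusted p = 0.00987, detected on 3 of 3 arrays with TGF-beta1 and 1 of 3 controls) and PDGFRB at least 1.50-fold (adjusted p = 1.07e-06), with a summed intensity of 2199.3 to 2576.5 with TGF-beta1 and 2131.4 to 2299.5 in controls. Their centred mean was 0.28 to 0.39 with TGF-beta1 and -0.26 to -0.10 in controls, and THY1 and POSTN were detected on 0 arrays. Of 7 leukocyte markers 2 were measured, CSF1R, at least 3.82-fold higher (limma adjusted p = 4.76e-13), and CD68, which did not pass. Their summed intensity was 1220.1 to 1256.9 with TGF-beta1 and 1326.8 to 1517.5 in controls. The centred mean of these 2 genes was 0.59 to 0.89 with TGF-beta1 and -0.54 to -0.42 in controls, where CSF1R was not detected. PTPRC, CD3E, CD14, LYZ and MS4A1 were detected on 0 arrays. Of 6 endothelial markers PECAM1 was measured, at least 1.17-fold higher (adjusted p = 0.0027), at intensities of 34.3 to 40.6 with TGF-beta1 and 16.7 to 23.5 in controls and centred levels of 0.10 to 0.39 with TGF-beta1 and -0.45 to -0.15 in controls, while VWF, CDH5, KDR, TEK and ERG were detected on 0 arrays. PDGFRB and CSF1R were detected on 3 of 3 arrays in both groups with TGF-beta1 and on 0 in the other groups. They passed the filter of detection on 3 arrays only through arrays where they were high, and DCN and PECAM1 also needed those arrays. Their calls are thus tied to the filter, and the centred means include levels that were not detected. Of 6 distal nephron markers 0 were measured. Of the 8 measured proximal tubule markers KRT8 rose and SLC4A4, PAX8 and MME fell, with a summed intensity of 11335.8 to 12238.1 with TGF-beta1 and 12372.2 to 13180 in controls and a centred mean of -0.25 to -0.14 with TGF-beta1 and 0.15 to 0.29 in controls. The part of these cells in the marker values was not tested.

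C-peptide alone left no marker past the threshold at 48 h (limma, 0 of 10 probes, 0 at an unadjusted p under 0.05), where 6.84% of all probes passed. The groups did not overlap for 2 of 10 marker probes, against 32.2% of all probes. HAVCR1 changed by -0.10 (95% confidence interval -0.34 to 0.14, adjusted p = 0.656) and LCN2 by 0.29 (-1.15 to 1.72, adjusted p = 0.846). SOX4, at 11.37, 11.37 and 11.27 with C-peptide against 11.05, 11.20 and 11.06 in controls, had the lowest adjusted p (0.23, SE 0.15, adjusted p = 0.349). When the test used only these 6 arrays, SOX4 passed (0.23, SE 0.07, adjusted p = 0.0479). The VCAM1 probe ILMN_1766955, at 6.54, 5.99 and 5.97 with C-peptide against 5.79, 5.74 and 5.70 in controls, changed by 0.42 (SE 0.27, adjusted p = 0.366), and without C-peptide 18 h replicate 3 in the fit it passed (SE 0.13, adjusted p = 0.0415).

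Added to TGF-beta1, C-peptide likewise gave 0 of 10 called marker probes (0 at an unadjusted p under 0.05), against 3.16% of all probes. SOX9 was the marker whose groups did not overlap, at 8.22, 8.07 and 7.97 with both agents against 8.32, 8.52 and 8.23 with TGF-beta1 alone (-0.27, SE 0.15, limma adjusted p = 0.309). This lack of overlap was seen for 29.8% of all probes. HAVCR1 changed by -0.20 (95% confidence interval -0.44 to 0.05, adjusted p = 0.36). The interaction of the agents passed for 0 of 10 marker probes (1 at an unadjusted p under 0.05, SOX4) and for 0% of all probes.

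At 18 h, C-peptide gave 0 of 10 called marker probes (limma, 2 at an unadjusted p under 0.05, an SPP1 probe and SOX4), against 2.46% of all probes, and the values turn on replicate 3. LCN2 was 7.87, 8.66 and 12.83 with C-peptide, against 9.25, 9.22 and 9.01 in 18 h controls. In deposited intensities these were 188.6, 399.9 and 6272.8 with C-peptide, against 514.6, 455.6 and 408.5 in controls. Replicates 1 and 2 thus lay below every control and replicate 3 above them all. The fitted change was 0.63 (SE 0.69, adjusted p = 0.599) with the 3 arrays and -0.89 (SE 0.17, adjusted p = 0.0235) without replicate 3, a call in the other direction. On replicate 3 LCN2 stood 4.03 above the mean of the other 5 arrays at 18 h, the largest such difference among 16322 probes, of which 29 exceeded 2.

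VCAM1 shared this array. Probe ILMN_2307903 had 7.57, 7.71 and 9.37 with C-peptide, against 7.90, 7.96 and 7.99 in 18 h controls. Probe ILMN_1766955 had 5.65, 5.78 and 7.33 with C-peptide, against 5.87, 6.04 and 5.92 in controls. On both probes replicates 1 and 2 lay below every control and replicate 3 above them all. Their changes were 0.27 (SE 0.29, limma adjusted p = 0.599) and 0.31 (SE 0.27, adjusted p = 0.494), and without replicate 3 they were -0.31 (adjusted p = 0.278) and -0.22 (adjusted p = 0.409). ICAM1 was not detected on this array. SOX4 had 10.99, 11.13 and 10.33 with C-peptide, against 11.19, 11.11 and 11.07 in controls, and was lowest on replicate 3. Its change was -0.30 (SE 0.15, adjusted p = 0.202), and without replicate 3 it was -0.06 (adjusted p = 0.765).

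Most measured targets of NF-kappaB were high on the same array. Of 16 measured, 13 had their highest 18 h value on C-peptide replicate 3, against 26.4% of all probes. The others were RELB, IRF1 and LTB, and IRF1 and LTB were lowest on that array. LTB had intensities of 660.1, 926.2 and 268.9 with C-peptide, against 1485.9, 1332.6 and 1183.2 in controls. IRF1 had 310.7, 423.2 and 259.7 with C-peptide, against 466.8, 367.6 and 371.4 in controls. The mean of the list, centred on all arrays, was -0.24, -0.03 and 1.25 on the C-peptide arrays, against 0.06 to 0.16 on the controls. The cytokine IL6 had intensities of 111.1, 154.2 and 2309.5 with C-peptide, against 221.8, 201.6 and 161.2 in controls. The growth factor CSF2 had 26.2, 51.4 and 886.6 with C-peptide, against 60.9, 61.8 and 37.4 in controls, so replicate 3 alone lay above every control for both. SOD2, the mitochondrial superoxide dismutase, had 1428, 1603.4 and 8273.4 with C-peptide, against 1818.4, 1607.6 and 1458.7 in controls. The summed intensity of 2 leukocyte markers was 1026.2, 1219.5 and 2026.1 with C-peptide, against 1008.9 to 1067.7 in controls, and that over 4 fibroblast markers 1169.5, 1624.6 and 2686.5 with C-peptide, against 1390.6 to 1757.4 in controls. On the normalized, centred log2 scale the leukocyte mean was -0.41, -0.43 and -0.03 with C-peptide, against -0.46 to -0.44 in controls, and the fibroblast mean -0.40, -0.27 and 0.05 with C-peptide, against -0.22 to -0.16 in controls. The part of any of these in the LCN2 and VCAM1 values was not tested.

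**Figure D4:**
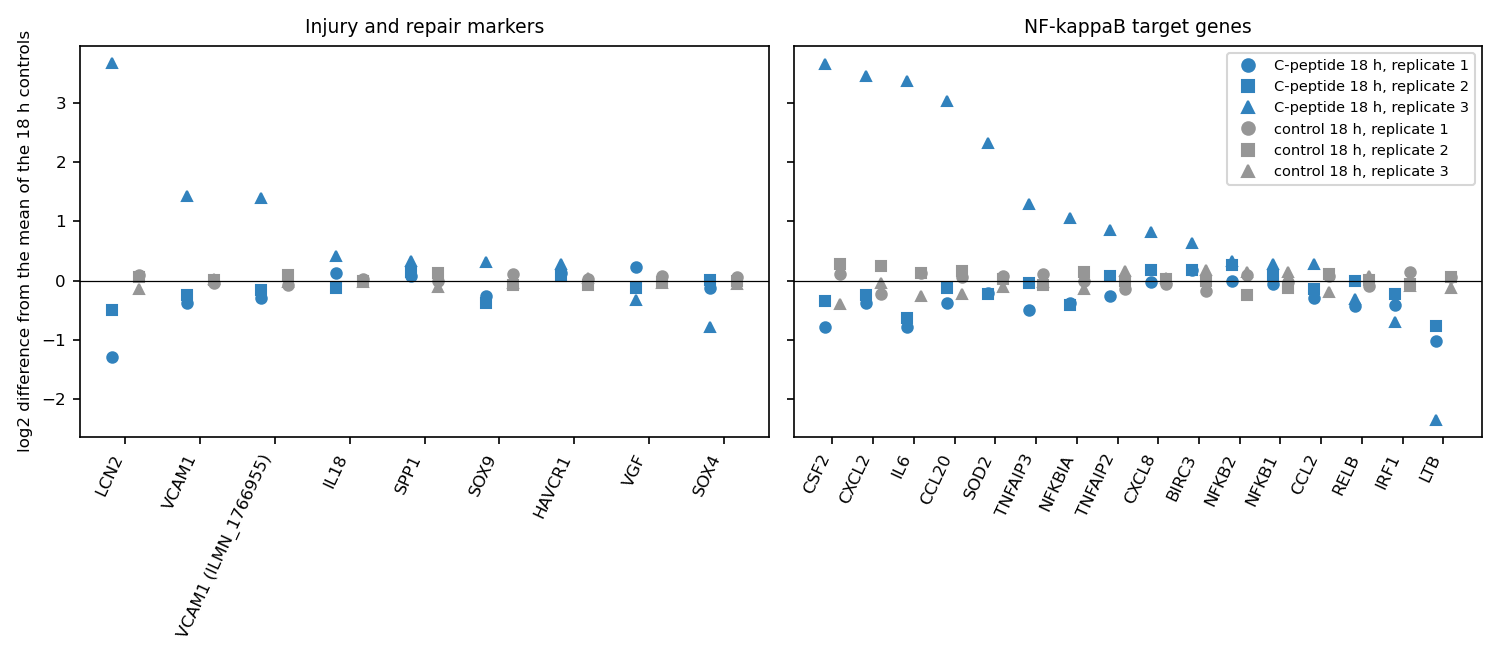
Log2 difference from the mean of the 18 h controls (vertical axis) for the markers (left) and 16 NF-kappaB target genes (right), with 1 point for each of 3 C-peptide and 3 control arrays at 18 h. C-peptide replicate 3 (triangles) lies far above the other arrays for LCN2, VCAM1, CSF2, CXCL2, IL6, CCL20 and SOD2, and below them for SOX4 and LTB.

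The remaining markers were close at 18 h. HAVCR1 had 10.34, 10.28 and 10.48 with C-peptide, against 10.23, 10.13 and 10.26 in controls (0.16, SE 0.12, limma adjusted p = 0.404), and its groups were the only ones among the 10 probes that did not overlap, against 19.3% of all probes. VGF had 9.24, 8.89 and 8.69 with C-peptide, against 9.08, 8.99 and 8.97 in controls (-0.07, SE 0.12, adjusted p = 0.74). IL18 had 12.75, 12.50 and 13.04 with C-peptide, against 12.66, 12.63 and 12.60 in controls (0.13, SE 0.10, adjusted p = 0.438). None of these 3 passed, and VGF and IL18 overlapped between groups. Without replicate 3 their changes were 0.10 for HAVCR1, 0.05 for VGF, of the other sign, and -0.0032 for IL18. The SPP1 probe ILMN_2374449 had 14.05, 14.12 and 14.30 with C-peptide, against 13.97, 14.10 and 13.86 in controls (0.18, SE 0.09, adjusted p = 0.194), and its change was 0.11 (adjusted p = 0.472) without replicate 3. Of 26 measured partners and other SOX genes MMP9 and ITGAV passed at 18 h, against 2.46% of all probes. MMP9 changed by -0.92 (SE 0.19, adjusted p = 0.0308) and ITGAV by 0.65 (SE 0.15, adjusted p = 0.037). MMP9 was detected on 2 of 3 C-peptide arrays and all 3 controls. The centred mean of MMP9 and SLC22A17 was -0.66, -0.70 and -1.18 with C-peptide, lowest on replicate 3, against -0.59 to -0.43 in controls. The count of 2 called genes was 0 without 18 h control replicate 1 or 2, and 7 without control replicate 3.

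The C-peptide change at 48 h differed from that at 18 h for 0 of 10 marker probes (1 at an unadjusted p under 0.05), against 9.39% of all probes. SOX4 came nearest, with the 48 h change above the 18 h change by 0.54 (SE 0.21, limma adjusted p = 0.0925). It passed without C-peptide 18 h replicate 2 (0.69, adjusted p = 0.038) and was 0.30 (adjusted p = 0.157) without replicate 3. For LCN2 the difference was -0.34 (SE 0.97, adjusted p = 0.848) with all arrays and 1.18 (SE 0.23, adjusted p = 0.0034) without replicate 3, a call of the other sign. The VCAM1 probe ILMN_1766955 had 0.11 (SE 0.38, adjusted p = 0.878) with all arrays and passed without replicate 3 (0.65, SE 0.20, adjusted p = 0.0372). Between 48 h and 18 h controls 0 of 10 marker probes passed (1 at an unadjusted p under 0.05), against 0.00613% of all probes, although the groups did not overlap for 5 of 10, against 25.5% of all probes. SOX9, 1 of these 5, was not detected in either group. VGF, at 8.68, 8.80 and 8.42 in 48 h controls against 9.08, 8.99 and 8.97 in 18 h controls, changed by -0.38 (SE 0.12, adjusted p = 0.105), and without C-peptide 18 h replicate 3 in the fit it passed (SE 0.11, adjusted p = 0.0404).

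For the 4 markers whose group means spanned at least 1 on the log2 scale, the genes with the most similar profile over the 18 arrays were found by the root mean square difference of centred log2 values. For HAVCR1 they were SPTLC3 (0.131), TMEM106B (0.148) and IL6R (0.150). For LCN2 they were DEFB1 (0.687), CFB (0.856) and RNF144B (0.982), a wider distance than for the other 3 markers. For SOX9 they were IL7R (0.250), LPAR5 (0.251) and EGR2 (0.270), and for SOX4 MFNG (0.136), GPM6A (0.137) and VPS37D (0.157). These distances describe the arrays and share their groups.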

How the data were processed

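The authors deposited mean bead intensity per probe and array, exported without normalization from GenomeStudio 1.1.1, per the file headers. Between 23.4% and 28.1% of the values on an array lay below 0, so a background had been subtracted. The deposited detection value is a fraction, 1 minus the detection p. The authors' normalized intensity, in a further deposited table, had a median of 5.0 on each of the 18 arrays. How it was normalized is not given in the sources used here, and it served as an alternative. GenomeStudio and BeadStudio are named in the submitters' processing notes.

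Intensities were processed in R 4.3.3 with the neqc function of limma 3.58.1 (background from the detection p, offset 16, quantile normalization, log2). Probes detected (p under 0.01) on 3 or more of 18 arrays were kept, and probes were not merged. A model of 6 group means was fitted to all arrays (lmFit, contrasts.fit, eBayes with trend, 12 residual degrees of freedom), with two-sided p-values adjusted by Benjamini-Hochberg over the 16322 kept probes. The script was tested on simulated data. The precision is limited by 3 arrays a group. Symbols were updated through a RefSeq table (3799 of 48803 probes), and context genes were represented by the brightest kept probe.

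The members, the context lists and the tests were chosen with earlier results of these data known. All 10 members are named; from each list up to 4 called genes with the largest TGF-beta1 change, plus direct partners of members, are named, and the nearest 3 genes in profile; KRT19, GDF15, ATF3 and PROM1, the cytokine genes at 18 h and the called cell markers were named after their values were seen. Same-numbered replicates were not treated as pairs: correlations of their deviations ran from -0.23 to 0.24. Alternatives changed the scaling, background, filter, probe choice, arrays in the fit, replicate block and values, and left out each replicate.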

Additional observations from a re-analysis of the deposited data

How the results depend on the processing

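Over 19 marker changes (the 15 calls with TGF-beta1, and LCN2, SOX4 and both VCAM1 probes for C-peptide at 18 h), 284 alternative values kept direction and side of the threshold, 8 lost the call and 3 reversed. The lost calls concern SPP1 with TGF-beta1 (ILMN_1651354 also without a detection filter, adjusted p = 0.0517) and IL18 with both agents, as given above. The reversed changes among these 19 are those without C-peptide 18 h replicate 3: LCN2 -0.89, VCAM1 -0.31 and -0.22. Over the arrays left out in turn, these changes ran from -0.89 to 1.59, from -0.31 to 0.59 and from -0.22 to 0.61. Without that array other uncalled changes also turned sign: at 18 h VGF (0.05) and IL18 (-0.0032), and for 48 h minus 18 h LCN2 (1.18, now called), VCAM1 ILMN_2307903 (0.43, against -0.15) and IL18 (0.01, against -0.12). Leaving out replicates in turn gave 6 to 8 called marker probes for TGF-beta1 (8 with all arrays), 7 to 8 for both agents against C-peptide (7), 0 to 1 for C-peptide at 18 h (0) and 0 to 2 for the difference between times (0). With only the compared groups, 1 marker probe passed for C-peptide at 48 h. Leaving C-peptide 18 h replicate 3 out of the other comparisons, an alternative chosen after seeing the data, gave 1 for C-peptide at 48 h, 1 for the controls and 8 for both agents against C-peptide.

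With the replicate block the counts stayed at 8 and 7 for the TGF-beta1 comparisons and 0 for the others, so it changed no call count; same-numbered arrays did not deviate together. Each assumed array set held whole groups only, so a block for set could not change the values where a set held both groups. The identical values it gave there are thus no check, and no such fit was possible for the comparisons across sets.

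List counts for C-peptide at 18 h were the least stable: 3 injury genes (0 to 6 across alternatives), 2 partners (0 to 7) and 1 NF-kappaB target (0 to 3). For TGF-beta1, NF-kappaB targets numbered 5, but 11 with only the compared groups and 9 without C-peptide 18 h replicate 3; with C-peptide present they numbered 7, but 4 without a detection filter, without C-peptide 48 h replicate 3 and without replicate 1 or 2 of the combination. The injury list gave 18 to 24 calls for TGF-beta1 (22 with all arrays). Signal over background limits ICAM1, CLU, SOX9 without TGF-beta1 and LCN2 with it. The cause of these differences was not tested.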
